A study of Mus musculus with 6 samples.

Results

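The genes described here encode the subunits of the proteasome core and regulatory particles in MCEC, an immortalised line of mouse cardiac endothelial cells. Protein-coding rows with a symbol of Psma, Psmb, Psmc or Psmd followed by a digit were taken, apart from the inducible subunit genes Psmb8, Psmb9 and Psmb10, which gave 37 of 78317 gene rows. Of these, 36 encode proteasome subunits or dedicated assembly chaperones, and Psmc3ip, whose symbol fits but whose product acts in meiotic recombination, is no proteasome subunit and is counted in no class below. RNA sequencing libraries of wild-type MCEC (control, n = 3) were compared with libraries of MCEC carrying a short hairpin RNA against Fat4, labelled ShFat4 (knockdown, n = 3). Both groups are the same cell line, and the labels give no treatment or time. No label says whether control cells carried a non-targeting hairpin or how many hairpins or clones were used. Nor does any say that the 3 libraries of a group derive from separate cultures, and the p-values therefore reflect library-to-library spread alone, possibly technical. The study's title sets the comparison in the context of tumour angiogenesis and tumour immunity.

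The proteasome degrades proteins tagged with ubiquitin. Its core particle is a barrel of 4 stacked rings, with alpha subunits forming the outer rings that gate the entry and beta subunits forming the inner rings, where Psmb5, Psmb6 and Psmb7 carry the catalytic threonines. The regulatory particle caps the barrel: a ring of ATPases (Psmc genes) unfolds substrates and opens the gate, and non-ATPase subunits (most Psmd genes) bind ubiquitin, remove it and hold the lid together. Psmd5, Psmd9 and Psmd10 encode chaperones that help build the ATPase ring and leave the finished particle. The transcription factor NRF1 (Nfe2l1), released from the endoplasmic reticulum when proteolysis is impaired, is known to raise the transcription of proteasome genes together, through antioxidant response elements.

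Promoter sequences are shown for 4 genes that rose, 1 from each main class, because the subunit genes differed in which of 3 sequence motifs their promoters held. The RefSeq promoter table of build GRCm38.p6 (250 bases before to 50 bases after an annotated start, a different build from the GRCm39 coordinates given with the genes) had entries for 29 of the 36 genes, 31 entries in all. Capitals mark matches on either strand to the antioxidant response element core TGACNNNGC, to CCAAT, the box bound by NF-Y, and to CCGGAAG, a core bound by ETS factors. The Psma3 promoter (chr12:70974373-70974672, plus strand) held 3 CCAAT matches, that of Psmb6 (chr11:70525107-70525406, plus strand) 1 antioxidant response element core, that of Psmc6 (chr14:45329574-45329873, plus strand) 1 such core and 1 ETS core, and that of Psmd14 (chr2:61711444-61711743, plus strand) 3 CCAAT matches, of which 2 overlap.
Psma3: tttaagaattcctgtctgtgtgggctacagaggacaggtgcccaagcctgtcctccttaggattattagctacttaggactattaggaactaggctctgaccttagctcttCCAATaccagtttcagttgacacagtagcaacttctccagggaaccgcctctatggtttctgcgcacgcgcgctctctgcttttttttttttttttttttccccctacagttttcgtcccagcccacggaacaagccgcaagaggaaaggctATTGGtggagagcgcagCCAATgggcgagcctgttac
Psmb6: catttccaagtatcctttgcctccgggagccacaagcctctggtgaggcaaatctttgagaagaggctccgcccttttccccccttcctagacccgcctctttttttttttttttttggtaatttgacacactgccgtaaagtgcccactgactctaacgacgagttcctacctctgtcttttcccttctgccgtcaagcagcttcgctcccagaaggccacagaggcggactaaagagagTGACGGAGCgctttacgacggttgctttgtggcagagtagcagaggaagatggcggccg
Psmc6: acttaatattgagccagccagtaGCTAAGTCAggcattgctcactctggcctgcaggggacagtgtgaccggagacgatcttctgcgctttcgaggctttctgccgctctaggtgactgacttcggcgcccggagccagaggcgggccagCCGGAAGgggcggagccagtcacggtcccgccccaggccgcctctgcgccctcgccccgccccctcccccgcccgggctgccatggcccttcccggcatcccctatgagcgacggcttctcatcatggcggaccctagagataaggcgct
Psmd14: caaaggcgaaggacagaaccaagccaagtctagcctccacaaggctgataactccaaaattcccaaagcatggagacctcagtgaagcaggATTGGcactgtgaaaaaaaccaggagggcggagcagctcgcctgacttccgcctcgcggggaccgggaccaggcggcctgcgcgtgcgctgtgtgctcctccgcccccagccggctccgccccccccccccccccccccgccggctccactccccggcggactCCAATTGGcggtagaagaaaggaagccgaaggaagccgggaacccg

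The ETS core was found in the promoters of 9 of 14 regulatory particle genes with an entry and of 1 of 12 core particle genes, Psma6, against 8.86% of all 32851 promoters of the same length. The CCAAT box was present in 7 of 12 core genes and 4 of 14 regulatory genes, against 37.4% of all promoters. Psmb11, which could not be tested for change, is counted among these core genes and among those with the broader string given below. Psmb1 and Psmb2, which rose, and Psmd7, which fell, had no promoter entry. The antioxidant response element core was present in Psmb5, Psmb6, Psmc6, Psmd12 and the chaperone gene Psmd9, that is 2 of 12 core and 2 of 14 regulatory genes, against 12.4% of all promoters. Genes with more than 1 annotated start (Psma6 and Psmc2) were counted as holding a motif when either entry did. A match describes the letters in this window and not a bound site, and these 3 motifs were picked after 9 had been counted. The counts for the antioxidant response element depended on the string used. A broader form, TGANNNNGC, was present in 9 of 12 core and 6 of 14 regulatory genes, against 41.3% of all promoters. A stricter form, TGACTCAGC, was present in 0 core and 0 regulatory genes, against 0.454% of all promoters.

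**Figure D1:**
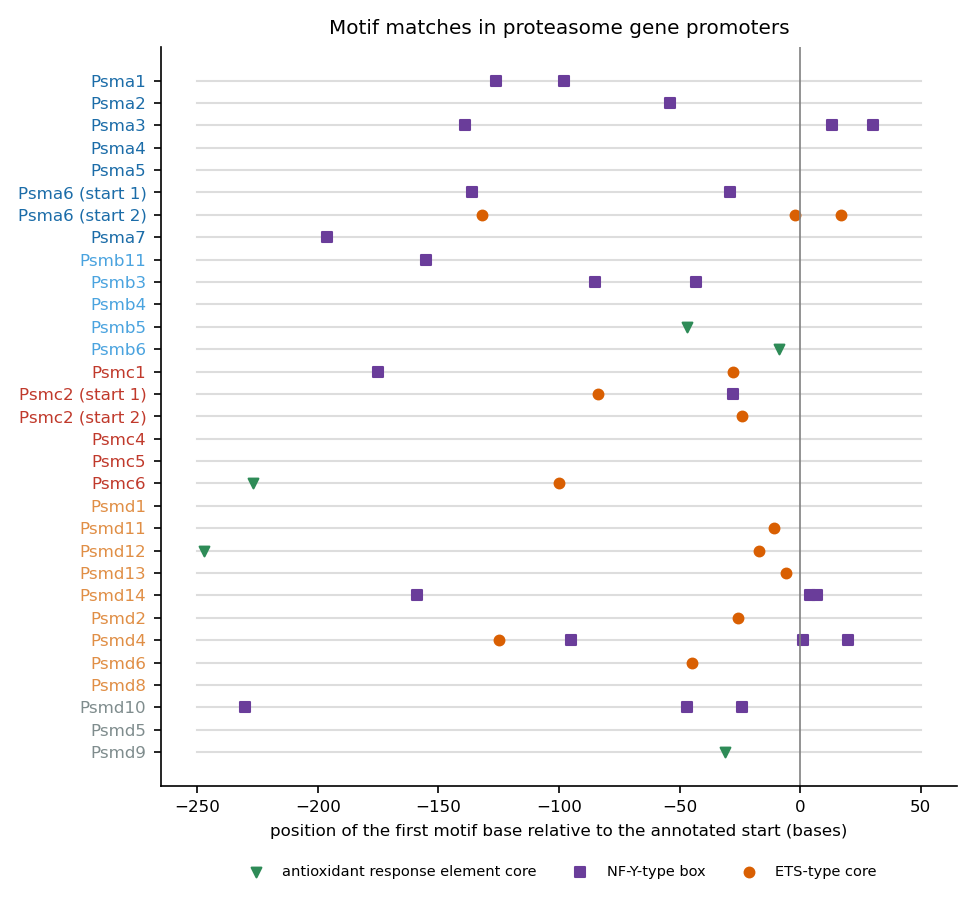
Each row is an annotated promoter of a proteasome gene, and symbols give the position of the first base of each motif match in bases from the annotated start. Row labels are coloured by class, with alpha ring genes dark blue, beta ring genes light blue, ATPase genes red, non-ATPase genes orange and assembly chaperone genes grey. ETS-type cores lie mostly in the ATPase and non-ATPase rows (9 of 14 regulatory genes) and in 1 of 12 core genes.

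Total counts ranged from 10305810 to 11870091 per library. Levels are given as CPM, the usual depth-scaled count, after TMM scaling between libraries. Fat4 (ENSMUSG00000046743), the targeted gene, was scarce, with 10, 22 and 31.5 estimated counts in control and 8.5, 10 and 9 in knockdown libraries. It passed the test as lower (log2 fold change -1.17, SE 0.35, edgeR adjusted p = 0.033), while control replicate 1 lay within the knockdown range, and only 1 of the 6 fits leaving out a library, that without control replicate 1, kept the call, which was also lost by DESeq2, by limma-voom and after correction for GC content and length (adjusted p = 0.0585). Markers of the labelled cell type were mostly missing: 4 of 14 endothelial identity genes reached 1 CPM in a group, and 6, among them Erg, Vwf and Cldn5, had no count. Their summed level was 43.5 to 45.7 CPM in control and 30.4 to 38.1 CPM in knockdown libraries. All 8 mesothelial or epicardial markers reached that level, with a summed level of 1038 to 1123 CPM in control and 844 to 877 CPM in knockdown libraries. The summed level of 6 fibroblast markers, of which Lum and Tcf21 had no count, was 2371 to 2454 CPM in control and 1767 to 1929 CPM in knockdown libraries. Of 6 cardiomyocyte markers, only 1 reached 1 CPM in a group and 3 (Myh6, Myh7 and Ryr2) had no count. Their summed level was 7.71 to 9.30 CPM in control and 14.2 to 18.6 CPM in knockdown libraries, without overlap. Of 5 leukocyte markers, only 1 reached 1 CPM in a group and 1 (Adgre1) had no count. These markers summed to 3.17 to 4.26 CPM in control and 3.52 to 4.07 CPM in knockdown libraries. In bulk RNA, fewer cells of a type and less RNA per cell cannot be told apart. The share of counts from genes with ribosomal protein symbols was 12.2% ± 0.62 (SD, n = 3) in control against 13.95% ± 0.37 (SD, n = 3) in knockdown libraries. The part of these shifts in the proteasome results was not tested.

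Of 14 core genes that could be tested, 8 rose and 0 fell in the knockdown (adjusted p under 0.05 over all genes, from edgeR's quasi-likelihood test), where 8.94% of the 13372 tested genes rose and 8.44% fell. Of 17 regulatory genes, 3 rose and 1 fell, and of 3 assembly chaperone genes 1 rose and 0 fell. The difference between the core and the regulatory particle was not tested. The median log2 fold change was 0.20 over the core genes and 0.05 over the regulatory genes, against -0.01 over all tested genes. The fitted log2 fold changes ran from 0.04 to 0.47 in the core and from -0.18 to 0.36 in the regulatory particle. All 14 core genes had a fitted value above 0, as had 12 of 17 regulatory genes and 47.8% of all tested genes. With library-size scaling or after correction for GC content and length, 11 of 14 core genes were above 0, and without knockdown replicate 1 it was 13. The knockdown libraries all lay above the control libraries for 9 core and 5 regulatory genes (17.4% of all tested genes), and all below them for 0 core and 4 regulatory genes (17.5%).

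The number of called genes depended on single libraries. The 8 core calls became 2 without control replicate 2 or without knockdown replicate 2, and 3 without knockdown replicate 1. They became 4 without control replicate 3, 7 without knockdown replicate 3 and 9 without control replicate 1. Genes called over the whole table, 2324 with all libraries, numbered 1029 without control replicate 2 and 1165 without knockdown replicate 2. They numbered 1216 without knockdown replicate 1, 1226 without control replicate 3, 1789 without knockdown replicate 3 and 3077 without control replicate 1. The 3 regulatory rises became 5 without control replicate 1, 2 without control replicate 2 or control replicate 3, 1 without knockdown replicate 1 and 0 without knockdown replicate 2, while the 1 fall became 2 without control replicate 1 and 0 without control replicate 2, control replicate 3, knockdown replicate 1 or knockdown replicate 3. The core median lay between 0.17 and 0.22 over these 6 fits, and the core median minus the regulatory median between 0.12 and 0.18. Each of these fits shares most of its libraries with the full fit, so these ranges do not measure the spread between replicates. Medians and counts at a threshold are also unlike measures.

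**Figure D2:**
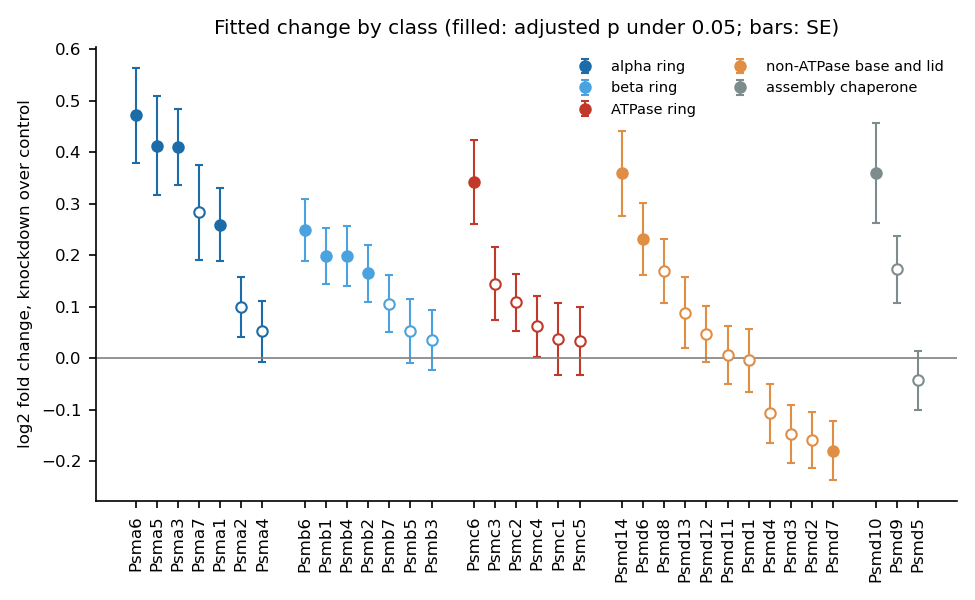
Points are fitted log2 fold changes (knockdown over control) of the 34 tested proteasome genes by class, with SE bars, and filled points passed the test (edgeR adjusted p under 0.05). Alpha and beta ring genes lie above 0, with 8 filled, while non-ATPase genes run from 0.36 for Psmd14 to -0.18 for Psmd7.

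Summed over genes, the core particle transcripts amounted to 5441, 5225 and 5010.0 CPM in the control libraries and to 6146, 6046 and 5737 CPM in the knockdown libraries. Every knockdown library exceeded every control library, and control replicate 1 was the control nearest to them. Regulatory particle transcripts summed to 3794, 3699 and 3669 CPM in control and 3868, 3881 and 3736 CPM in knockdown libraries, and here the groups overlapped. The ratio of the core sum to the regulatory sum was 1.40 ± 0.04 (SD, n = 3) in control and 1.56 ± 0.03 (SD, n = 3) in knockdown libraries, with 1.43 the highest control and 1.54 the lowest knockdown value. By class, the means went from 2035 ± 183 to 2439 ± 150 CPM for alpha ring genes, from 3190 ± 33.6 to 3537 ± 93.2 CPM for beta ring genes and from 1071 ± 35.3 to 1178 ± 35.4 CPM for ATPase genes (SD, n = 3). Non-ATPase genes summed to 2650.0 ± 33.8 and 2650.0 ± 45.3 CPM (SD, n = 3), level between the groups. All 36 genes together took 0.934% ± 0.012 (SD, n = 3) of control counts and 0.984% ± 0.016 (SD, n = 3) of knockdown counts.

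**Figure D3:**
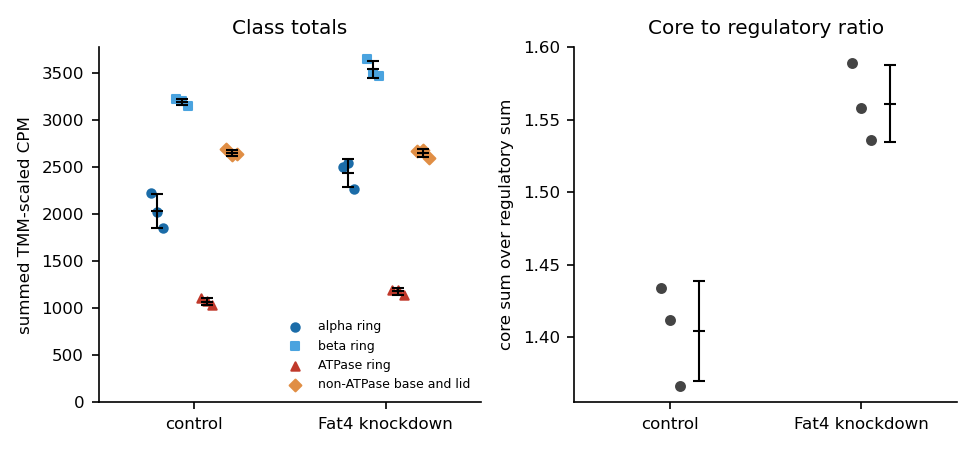
The left panel gives the summed TMM-scaled CPM of each class in each library (points) with mean and SD (black), on an axis from 0, and the right panel the ratio of core to regulatory sums on an axis that does not start at 0. Knockdown ratios (1.54 to 1.59) lie above control ratios (1.37 to 1.43), while non-ATPase totals overlap.

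The alpha ring genes Psma6, Psma5 and Psma3 had the 3 highest log2 fold changes of all subunit genes. Of 7 tested alpha genes, 4 rose, where 8.94% of all tested genes did. Psma6 (ENSMUSG00000021024, GRCm39 chromosome 12, 55431007 to 55465239, the span of its exons) stood at 131, 102 and 98.5 CPM in control and 164, 145 and 149.8 CPM in knockdown libraries. Its groups did not overlap, control replicate 1 was the highest control, and its log2 fold change of 0.47 (SE 0.09, edgeR adjusted p = 0.00455) was the largest of any subunit gene. Psma3 (chromosome 12, 71021395 to 71043121) went from 196, 185 and 165 CPM to 251, 257 and 217 CPM. The lowest knockdown library of Psma3 was above the highest control, and it rose by a log2 fold change of 0.41 (SE 0.07, edgeR adjusted p = 0.00206). Both calls held in all 6 fits without 1 library and in every other setting tried. No setting varied how reads were divided between genes, and the estimated counts of Psma3 were not whole in any of the 6 libraries.

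Psma5 and Psma1, 2 further alpha ring genes, rose as well. Psma5 (chromosome 3, 108164242 to 108187290) measured 382, 337 and 302 CPM in control and 465, 501 and 393 CPM in knockdown libraries, with 393 the lowest knockdown and 382 the highest control value (log2 fold change 0.41, SE 0.10, edgeR adjusted p = 0.0129). The call of Psma5 was lost without control replicate 2, knockdown replicate 1 or knockdown replicate 2. Some reads of Psma5 may be shared with the processed pseudogene Psma5-ps, which had 43.8 to 61.2 estimated counts per library against 3716 to 5218 for Psma5. Psma1 (chromosome 7, 113863841 to 113875353) had 238, 214 and 189.7 CPM in control and 252, 259.6 and 256 CPM in knockdown libraries (log2 fold change 0.26, SE 0.07, edgeR adjusted p = 0.0195). The knockdown libraries of Psma1 lay close together and the controls were spread, and its call was kept only without control replicate 1 among the 6 fits and was lost after correction for GC content and length (adjusted p = 0.0669).

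Psma7, Psma2 and Psma4 completed the expressed alpha ring and did not pass. Psma7 missed the threshold narrowly (log2 fold change 0.28, SE 0.09, edgeR adjusted p = 0.0511), passed in 9 of 17 other fits, and had 1 knockdown library, at 526 CPM, under control replicate 1 at 551 CPM. Psma2 and Psma4 had log2 fold changes of 0.10 and 0.05 with overlapping groups. Both turned to slightly negative values after correction for GC content and length, -0.02 and -0.04. Psma8, which encodes a testis-specific alpha subunit, had no count in any library, so that, from counting error alone, a level of as much as 0.253 to 0.291 CPM (3 counts) would be possible.

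Of 7 tested beta ring genes, 4 rose and 0 fell, where 8.94% and 8.44% of all tested genes did. The 4 rose by log2 fold changes of 0.16 to 0.25. Psmb1 (chromosome 17, 15695283 to 15720013), a non-catalytic subunit, went from 821, 810.0 and 805 CPM in control to 953, 928 and 915 CPM in knockdown libraries (log2 fold change 0.20, SE 0.05, edgeR adjusted p = 0.0194). Psmb4 (chromosome 3, 94791404 to 94794272), another non-catalytic subunit, went from 511, 491 and 475 CPM to 592, 558 and 546 CPM (log2 fold change 0.20, SE 0.06, edgeR adjusted p = 0.0269). Psmb2 (chromosome 4, 126571423 to 126603507), also non-catalytic, went from 521, 528 and 515 CPM to 598, 589 and 566 CPM (log2 fold change 0.16, SE 0.05, edgeR adjusted p = 0.047). In these 3 genes all knockdown libraries lay above all controls. All 3 calls were lost with library-size scaling, with no filter on low counts, after correction for GC content and length, and without control replicate 2, control replicate 3, knockdown replicate 1 or knockdown replicate 2. The call of Psmb2 was lost too without knockdown replicate 3 or without the robust option, and its corrected log2 fold change was 0.05.

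Of the 3 catalytic subunit genes, 1 passed the test as higher, where 8.94% of all tested genes did. Psmb6 (chromosome 11, 70416193 to 70418684), which carries the caspase-like activity, went from 293, 274 and 274 CPM in control to 342, 347 and 310.4 CPM in knockdown libraries, with no overlap between groups. It rose by a log2 fold change of 0.25 (SE 0.06, edgeR adjusted p = 0.0103), and the call did not hold in the fits leaving out control replicate 2 or knockdown replicate 2 but did after correction for GC content and length (adjusted p = 0.0177). Psmb7 (chromosome 2, 38478048 to 38534099), which carries the trypsin-like activity, had 198, 198 and 199 CPM in control and 206, 221 and 214 CPM in knockdown libraries, and did not pass despite groups that did not overlap (log2 fold change 0.11, SE 0.06, edgeR adjusted p = 0.2). Psmb5 (chromosome 14, 54851576 to 54855479), which carries the chymotrypsin-like activity and is the main target of proteasome inhibitors, had 134, 137 and 124 CPM in control and 137, 131 and 142 CPM in knockdown libraries. Its groups overlapped (log2 fold change 0.05, SE 0.06, edgeR adjusted p = 0.616). Whether Psmb6 changed more than Psmb5 was not tested: the ratio of their CPM values was 2.13 ± 0.12 (SD, n = 3) in control and 2.44 ± 0.24 (SD, n = 3) in knockdown libraries, with 1 knockdown library, at 2.19, inside the control range. Psmb3, a non-catalytic subunit, had a log2 fold change of 0.04 and overlapping groups. Psmb11, the beta subunit of thymic epithelium, had 1 count in 1 library of each group, under the 3 counts that a 0 allows, and was not tested.

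The ATPase ring held a single called gene among 6, which rose, where 8.94% of all tested genes did. Psmc6 (chromosome 14, 45567245 to 45587162) went from 221, 203 and 179 CPM in control to 260.1, 275 and 229 CPM in knockdown libraries, and its lowest knockdown library, replicate 3, stood just above control replicate 1. It rose by a log2 fold change of 0.34 (SE 0.08, edgeR adjusted p = 0.0108), a call lost without knockdown replicate 1 or knockdown replicate 2. The other 5 ATPase genes had log2 fold changes between 0.03 (Psmc5) and 0.14 (Psmc3), and none passed. Psmc3 passed only without control replicate 1 among all fits run. Of these 5, the groups were apart for Psmc2 alone, at 210.5, 217 and 218 against 226, 229 and 241 CPM.

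Of 11 non-ATPase genes, 2 rose and 1 fell, where 8.94% and 8.44% of all tested genes did, and the single fall lies near its share. The genes for the lid's paired metalloprotease-fold subunits, Psmd14 and Psmd7, were called in opposite directions, the fall of Psmd7 in only 2 of the 6 fits without 1 library. Psmd14 (chromosome 2, 61542038 to 61630720) encodes the deubiquitinase that cuts ubiquitin chains from substrates, and had 306, 266 and 229.7 CPM in control and 345, 352 and 330.3 CPM in knockdown libraries. Control libraries of Psmd14 were widely spread and knockdown libraries close together, all above the controls, and it rose by a log2 fold change of 0.36 (SE 0.08, edgeR adjusted p = 0.0094), a call lost only without knockdown replicate 2. Psmd7 (chromosome 8, 108307013 to 108315096) encodes its catalytically inactive partner, and had 406, 411 and 416 CPM in control and 352, 388 and 350.2 CPM in knockdown libraries. Psmd7 fell, with a log2 fold change of -0.18 (SE 0.06, edgeR adjusted p = 0.0428), the lowest value among subunit genes, with knockdown replicate 2 nearest to the controls. The call of Psmd7 was kept after correction for GC content and length (adjusted p = 0.04) but was lost with RLE scaling, by DESeq2, with protein-coding genes only, without the robust option, and in the fits without control replicate 2, control replicate 3, knockdown replicate 1 or knockdown replicate 3. The ratio of Psmd14 to Psmd7 CPM, not scaled for length, was 0.752, 0.648 and 0.552 in control and 0.981, 0.909 and 0.943 in knockdown libraries. This pair was picked after its values were seen, so the ratio is given with no test.

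Psmd6 (chromosome 14, 8348779 to 8357589), a lid scaffold subunit gene, also rose, from 144, 134 and 126 CPM in control to 165, 166 and 144 CPM in knockdown libraries (log2 fold change 0.23, SE 0.07, edgeR adjusted p = 0.0311). Knockdown replicate 3 of Psmd6 lay level with control replicate 1, at 144 CPM. The call was lost with library-size scaling, after correction for GC content and length, and without control replicate 2, control replicate 3, knockdown replicate 1 or knockdown replicate 2. Psmd4 (chromosome 3, 94940005 to 94949925), which encodes a ubiquitin receptor, had 159, 169 and 168 CPM in control and 156, 156 and 148 CPM in knockdown libraries, slightly lower in each knockdown library but not past the threshold (log2 fold change -0.11, SE 0.06, edgeR adjusted p = 0.222). Psmd2, a large base scaffold gene, and Psmd3, a lid scaffold gene, had log2 fold changes of -0.16 and -0.15 (edgeR adjusted p = 0.0547 and 0.086), each with all knockdown libraries below all controls. Both passed with library-size scaling, Psmd2 also with the stricter filter and Psmd3 also without control replicate 1. After correction for GC content and length the log2 fold change of Psmd3 was -0.03 (adjusted p = 0.793) and that of Psmd2 -0.15 (adjusted p = 0.063). The lid scaffold gene Psmd8 had 0.17 (adjusted p = 0.0715) and passed after correction for GC content and length, with protein-coding genes only and without control replicate 1. Psmd1, the other large base scaffold, and the lid scaffold genes Psmd11, Psmd12 and Psmd13 lay between -0.0036 (Psmd1) and 0.09 (Psmd13) and passed in no fit run.

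Of the assembly chaperone genes, Psmd10 (chromosome X, 139849178 to 139857477), which encodes gankyrin, a chaperone that binds the ATPase encoded by Psmc4, rose. It had 16.7, 18.5 and 14.8 CPM in control and 22, 22.2 and 19.8 CPM in knockdown libraries, a log2 fold change of 0.36 (SE 0.10, edgeR adjusted p = 0.0183). Psmd10 was the least abundant of the tested proteasome genes, and its call was lost without control replicate 3, knockdown replicate 1 or knockdown replicate 2 and after correction for GC content and length (adjusted p = 0.268). Psmd9 had a log2 fold change of 0.17 with groups apart (adjusted p = 0.0763), and passed only after that correction (0.0183) and with protein-coding genes only. Psmd5 had -0.04, with control libraries at 118, 118 and 118 CPM and knockdown libraries at 117, 113 and 112 CPM, and passed in no fit run.

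**Figure D4:**
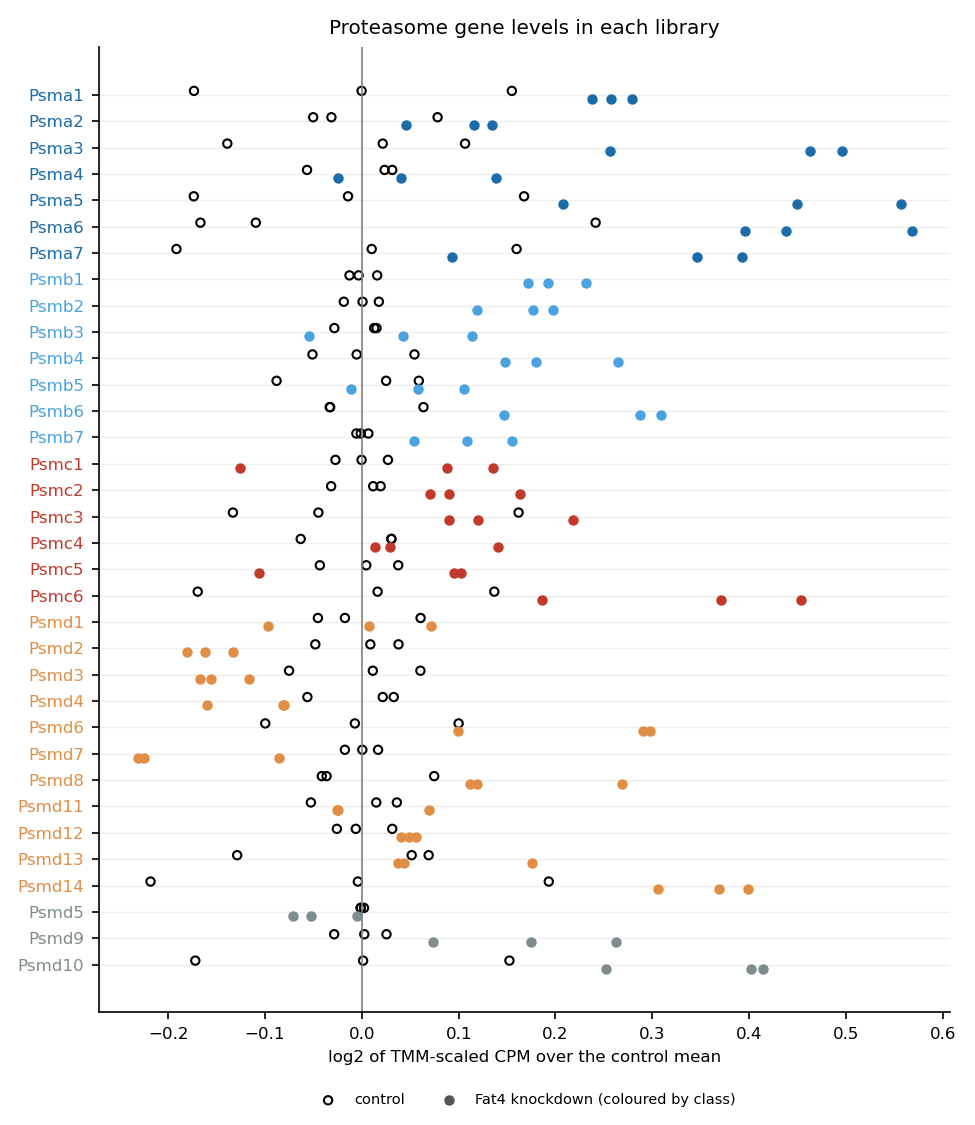
Each row is a proteasome gene, and points are single libraries as log2 of TMM-scaled CPM over the control mean, open for control and filled for knockdown, with the same class colours for names and points. Knockdown points of Psma3, Psma6 and Psmd14 lie right of all control points, and those of Psmd2, Psmd3, Psmd4, Psmd5 and Psmd7 left of them.

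Levels per kilobase of annotated exon length, the only scale on which genes can be compared with each other, were higher for core than for regulatory genes. The median over tested core genes was 148 CPM per kilobase in control libraries (range 46.8 to 433) and over regulatory genes 60.7 (range 19.7 to 182). Psmb2 had the highest level at 433 ± 5.43, followed by Psmb3 at 328 ± 5.53, Psma5 at 258 ± 30.5 and Psmb4 at 252 ± 9.26 CPM per kilobase (SD, n = 3 control libraries), of which Psma5 and Psmb4 did not differ beyond their spread. Psmd7, at 182 ± 2.16, was the highest of the regulatory genes, and Psmd10 (11.3 ± 1.27) and Psmd9 (11.8 ± 0.22) were the lowest of all tested members. The deposited length covers all annotated exons of a gene, so it overstates the length of the transcript in use by an amount that differs between genes.

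The fitted changes were lower at higher GC content, and the relation to length was weaker. Across the 34 tested genes, Pearson's r between log2 fold change and transcript GC percent was -0.49 (Spearman's rho -0.46), against -0.20 over 12787 tested genes with a GC value, and r with log2 length was -0.30 (rho -0.22), against -0.25. Within the 17 regulatory genes r with GC percent was -0.69 (rho -0.55), and within the 14 core genes -0.20 (rho -0.18). With log2 length, r was -0.11 (rho -0.07) within the regulatory genes and -0.07 (rho 0.04) within the core genes. These are correlations across genes in the same 6 libraries, which are not independent replicates. Core genes had a median GC of 47.4% and regulatory genes of 50.9%, with median lengths of 2335 and 2820.0 bases. After per-library trends in GC content and length were removed, 4 core genes rose (Psma3, Psma5, Psma6 and Psmb6), where 6.33% of all genes did. The corrected core median was 0.15 against 0.02 over the regulatory genes, but the 2 core rings differed. The alpha ring median was 0.28 before and after the correction, with 3 genes still called. The beta ring median went from 0.16 to 0.05, with 1 gene still called. That beta value was level with the corrected ATPase median of 0.05, and the non-ATPase median was 0.02. The regulatory genes that passed after the correction were Psmc6, Psmd14 and Psmd8, which rose, and Psmd7, which fell, where 6.11% of all genes fell.

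**Figure D5:**
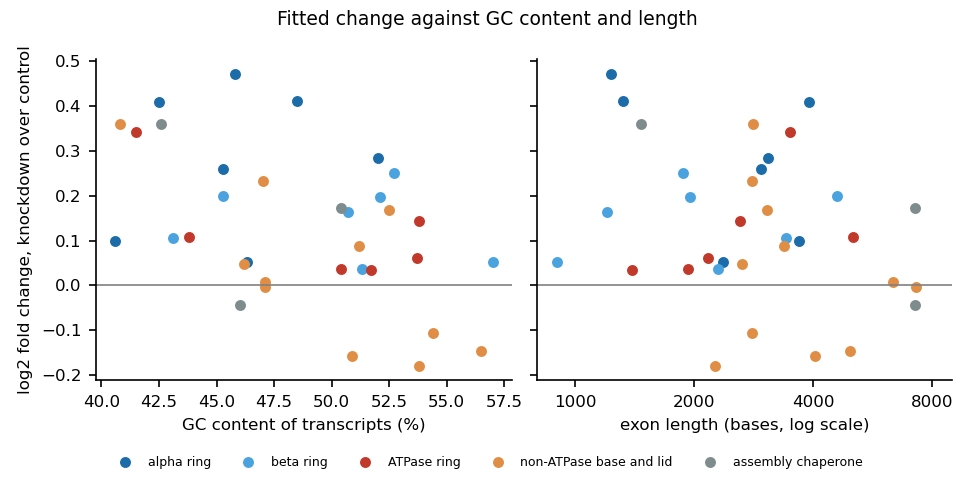
Points are the 34 tested proteasome genes coloured by class, with fitted log2 fold change against transcript GC content (left) and against annotated exon length on a log axis (right). The fitted change is lower at higher GC content (r = -0.49, rho = -0.46), most clearly among the red and orange regulatory genes (r = -0.69, rho = -0.55).

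Other genes of the pathway were taken from lists by role. Of 12 genes of the NRF1 activation axis, 1 rose and 3 fell, where 8.94% and 8.44% of all genes did, with a median log2 fold change of -0.11. Nfe2l1 itself had 78.1, 80.7 and 86.4 CPM in control and 71.8, 70.9 and 76.1 CPM in knockdown libraries, all below the controls, and did not pass (log2 fold change -0.17, SE 0.06, edgeR adjusted p = 0.0833). Vcp, the ATPase that extracts ubiquitinated proteins from membranes, fell from 448, 419 and 441 CPM to 352, 341 and 377 CPM (log2 fold change -0.29, SE 0.06, edgeR adjusted p = 0.00383), a call kept in all 6 fits without 1 library. Its cofactor genes split, with Nploc4 lower (-0.22) and Ufd1 higher (0.22), and Sel1l, an adaptor of endoplasmic reticulum ubiquitin ligases, was lower (-0.26). The call of Nploc4 was kept in 2 of the 6 fits without 1 library and those of Ufd1 and Sel1l in 1 each, and those of Nploc4 and Sel1l were lost after correction for GC content and length.

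The counts in the lists that follow stand beside the 8.94% of all tested genes that rose and the 8.44% that fell, and single calls in short lists lie near those shares. Of 6 assembly factor genes with other symbols, 1 rose and 0 fell, namely Psmg4, for a chaperone of alpha ring assembly (log2 fold change 0.35, adjusted p = 0.0202), a call kept in 2 of the 6 fits without 1 library. Pomp, the maturation factor of the core, had 0.07 and did not pass. Among 6 alternative activators and inhibitors, Psme1, a subunit of the interferon-inducible cap, rose (0.30, adjusted p = 0.0109) and 0 fell, the call of Psme1 being kept in 3 of the 6 fits without 1 library. Psme4, for another activator of the core, had -0.18 with groups apart (adjusted p = 0.0757) and passed as lower with library-size scaling, after correction for GC content and length (-0.21, adjusted p = 0.0376) and in 1 of the 6 fits without 1 library. Among the inducible subunit genes, Psmb10 rose from 64.9, 61.8 and 58.4 CPM to 80.7, 78.1 and 70.8 CPM (0.31, adjusted p = 0.00582), kept in all 6 fits without 1 library, while Psmb8 and Psmb9 had at most 4 counts per library. Adrm1 and Sem1, the remaining subunits of the regulatory particle, had 0.05 and 0.16 and did not pass. Of 11 shuttle and proteasome-bound enzyme genes, 1 fell, the shuttle gene Ubqln2 (-0.23), and 0 rose. The call of Ubqln2 was lost by DESeq2, with the replicate block and in 4 of the 6 fits without 1 library.

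The COP9 signalosome is a complex built like the proteasome lid, the initiation factor eIF3 holds some lid-like subunits, and both served for comparison. The eIF3 list was not limited to its lid-like subunits, so its counts and median are not those of a lid-like set. Of 10 COP9 genes, 4 rose and 1 fell, where 8.94% and 8.44% of all tested genes did, with a median log2 fold change of 0.10. Cops9 (0.46), Cops3 (0.35), Cops4 (0.29) and Cops2 (0.22) were higher, and Cops8 was lower, from 115, 117 and 122 CPM in control to 78.3, 74.7 and 79.3 CPM in knockdown libraries (log2 fold change -0.61, SE 0.06, edgeR adjusted p = 2.71e-05). Cops8 thus differed by more than any proteasome gene, and it and Cops3 were called in every fit run. The calls of Cops4 and Cops9 were kept in 3 and that of Cops2 in 2 of the 6 fits without 1 library, and Cops2 was also lost with library-size scaling and after correction for GC content and length (0.09, adjusted p = 0.314). Of 14 eIF3 genes, 4 rose and 1 fell, against the same shares, with a median of 0.05. Eif3m (0.48), Eif3e (0.38), Eif3i (0.27) and Eif3h (0.20) were higher and Eif3a (-0.27, edgeR adjusted p = 0.0457) was lower. Eif3m and Eif3e were called in every fit run, and Eif3i in 3, Eif3h in 2 and Eif3a in 1 of the 6 fits without 1 library. Eif3h was also lost with library-size scaling and after correction for GC content and length (adjusted p = 0.0995). The proteasome medians beside these were 0.20 for the core and 0.05 for the whole regulatory particle, ATPase and base genes included. No median was taken over the lid genes alone, and the differences between lists were not tested.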

How the data were processed

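Messenger RNA of 6 MCEC libraries was sequenced as tagmented cDNA, per the labels' protocols. STAR 2.7.11, SAMtools 1.22.1, fastp 0.24.0, MultiQC 1.32, FastQC 0.12.1 and the build GRCm39 are listed, per the submitters' processing notes. No source used here gives the counting tool, whether it used strand, or which annotation it read. The deposited table holds estimated counts per gene, not all whole: 23 of the 36 proteasome genes have a value that is not whole in some library (tolerance 1e-06), and how reads were divided between genes was not tested. The CPM columns, as deposited, equal the count over the library total. Counts were rounded, 92 spike-in rows left out, and all genes fitted together in edgeR 4.0.16 (R 4.3.3; filterByExpr, TMM, robust glmQLFit, glmQLFTest, no block), called at a Benjamini-Hochberg adjusted p under 0.05. A call here is that threshold, the SE is the log2 fold change over the square root of F, and printed CPM is TMM-scaled. Of the 36 genes, 34 passed the filter.

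GC percent came from GENCODE M21 transcripts (GRCm38), matched by gene identifier for all 36 genes and 95.6% of tested genes. The correction used mgcv 1.9.3 trends per library as offsets. Alternatives were RLE and library-size scaling, no filter, 10 CPM in 3 libraries, DESeq2 1.42.0, limma-voom (limma 3.58.1), a replicate block, protein-coding genes only and each library left out; the fit without the robust option and rounding down were added after seeing the data. The workflow was run on simulated counts drawn with no trend in GC content or length, and the outcome is not reported here. The genes, lists and classes were chosen with earlier results of these data known. Library values were given for Fat4, the called genes, Psmb5, Psmb6, Psmb7, Psmd4, Psmd14 and the genes of highest and lowest log2 fold change; those of Psma7, Psmc2, Psmd5 and the other pathway genes were added after seeing values. A further list of pathway genes is not reported here. Figures were drawn with matplotlib 3.10.9.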

Additional observations from a re-analysis of the deposited data

How the results depend on the processing

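The 12 rises among proteasome genes numbered 8 with library-size scaling and after GC and length correction, and 10 to 15 in the other settings without a left-out library, and fits without 1 library gave 2 (without knockdown replicate 2) to 15 (without control replicate 1). The 8 core rises became 5 with library-size scaling, 4 after GC and length correction and 2 to 9 without 1 library. No core gene fell in any of these fits. The regulatory rises ranged from 0 to 5 without 1 library. The 1 fall, Psmd7, became 0 with RLE scaling, DESeq2, protein-coding genes only or no robust option, 2 with at least 10 CPM in 3 libraries, 3 with library-size scaling, and 0 to 2 without 1 library, the same numbers holding for the regulatory particle alone. Without 1 library, the core median ranged from 0.17 to 0.22, the regulatory median from 0.0231 to 0.0814 and their difference from 0.12 to 0.18. With library-size scaling the regulatory median was -0.0084 and Psmb5 turned to -0.0031. Library-size scaling also placed the median of all genes at -0.07 instead of -0.01. Genes changed over the whole table numbered 2324, 1535 by DESeq2 and 1029 to 3077 without 1 library. The cause of these shifts was not tested. Of the calls made, 2 of the 12 rises, Psma3 and Psma6, held in every fit run.

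With the replicate number as a block, 13 proteasome genes rose (9 of the core) and 1 fell, and 2001 genes changed over the whole table. The numbers were not treated as pairs in the main fit because no label says that they pair cultures. Deviations of same-numbered libraries from their group means had correlations of -0.19, -0.15 and 0.12 over genes. Those of unlike-numbered libraries ran from -0.182 to 0.245, and with 3 libraries per group these values cannot settle whether the numbers are pairs. The depth gives at least 172 counts per library for each tested proteasome gene, the lowest being Psmd10, and whether it limited these comparisons was not tested. Psma8 and Psmb11 could not be tested at this depth.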

Other observations

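Psmc3ip, whose symbol fits the proteasome pattern but whose product works with the meiotic recombinase, had 36.0, 29.3 and 27.6 CPM in control and 39.3, 35.8 and 30.8 CPM in knockdown libraries, with overlapping groups (log2 fold change 0.19, SE 0.11, edgeR adjusted p = 0.232). Of the named pseudogene copies of proteasome genes, Psma5-ps alone had more than 2 estimated counts in any library. Psma6 and Psma4, both alpha ring genes, had a CPM ratio of 0.408 ± 0.056 (SD, n = 3) in control and 0.546 ± 0.052 (SD, n = 3) in knockdown libraries. The pair was chosen after its values were seen and is given with no test. Nfe2l2, the gene of the related factor NRF2, had 68.6, 65.2 and 61.1 CPM in control and 57, 55.8 and 59.5 CPM in knockdown libraries, did not pass (log2 fold change -0.18, edgeR adjusted p = 0.0729) and passed with library-size scaling and after GC and length correction (-0.23, adjusted p = 0.0171).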
